A study of Mus musculus with 20 samples.

Results

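Neurexins, neuroligins and cerebellins are proteins that join the 2 sides of a synapse, and 8 of their genes were measured among the 25317 gene identifiers of a mouse cortex count table. The 8 genes were chosen by name and mapped to Ensembl identifiers: Nrxn2, Nrxn3, Nlgn1, Nlgn2, Nlgn3, Cbln1, Cbln2 and Cbln4. All 8 were present in the table. RNA came from the cortex of C57BL/6 mice aged 3 months, either wild type or carrying a heterozygous deletion of Foxp2, with 1 animal per lysate. By the protocol, hemispheres were dissected free of diencephalon, basal ganglia, hippocampus and the rostral tip, and each lysate mixed the cell types that remained. Levels of striatal markers are given further on. From each lysate an aliquot was kept just before pull-down (Input), and ribosomes with a GFP tag were then captured with anti-GFP serum (bacTRAP, here IP), which recovers ribosome-bound RNA of the tagged cells. All compared mice went through the same pull-down. No source used here names the cells that carry the tag or the promoter that drives it.

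The compared libraries were 5 wild-type IP, 5 wild-type Input, 3 heterozygous IP and 3 heterozygous Input, each pair of fractions from 1 animal. Animals are named as in their titles, either with a number (wt734, wt736, wt785, het729, het786) or with BT (wtBT13, wtBT14, hetBT13). Library totals ran from 4061562 to 5754169 counts in IP and from 2782934 to 4072270 in Input. Foxp2, the forkhead transcription factor gene whose deletion defines the groups, was at 24 to 30.9 CPM (counts scaled to a common library size) in heterozygous Input and at 38 to 63.8 CPM in wild-type Input, without overlap. In IP it was at 31.8 to 55.6 CPM in heterozygotes and at 45.3 to 103 CPM in wild types, and the groups overlapped. The share of counts from mitochondrially encoded genes was 0.928% to 1.86% in Input and 0.0616% to 0.127% in IP, except in het729 IP, where it was 0.398%.

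Neurexins sit mainly in the presynaptic membrane and bind a range of partners across the cleft. Neuroligins are postsynaptic partners of neurexins: neuroligin 1 is known from excitatory synapses, neuroligin 2 from inhibitory synapses and neuroligin 3 from both. Cerebellins are secreted proteins of the C1q family that bind neurexins and bridge them to delta-type glutamate receptors, and cerebellin 4 also binds the netrin receptors Dcc and Neo1. Cerebellin 1 is best known from granule cells of the cerebellum, and cerebellins 2 and 4 are expressed in forebrain neurons.

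Because the deleted gene encodes a forkhead factor, promoter windows were searched for the forkhead letters TGTTTAC (reverse complement GTAAACA). Each window runs from 250 bases before to 50 bases after a gene start, from RefSeq on GRCm38.p6. The search covered 7 windows of 4 of the 8 genes: 3 for Nrxn3, 2 for Nlgn1 and 1 each for Nlgn2 and Cbln4. No window of Nrxn2, Nlgn3, Cbln1 or Cbln2 was searched, so the counts below leave these genes out. The forkhead letters were in 0 of the 7 windows, against 3.65% of all 32851 promoter windows of that length. The TATA letters TATAAA were also in 0 of 7, against 13.6% of all windows. A GC box, GGGCGG on either strand, was found 3 times in the Nlgn2 window, 2 times in the Cbln4 window with the matches overlapping by 1 base, and 1 time in the second Nrxn3 window, against 35.7% of all windows with any match. The letters TGACG, a core of the cyclic AMP response element, occurred 1 time each in the Nlgn2 and Cbln4 windows, against 20.8% of all windows on either strand. The windows shown are 3, those of the neuroligin pair whose read ratio is compared further on and that of the cerebellin gene with many reads and a large IP to Input difference. Capitals mark GC boxes, read 5′ to 3′ on the gene's strand. All 3 genes lie on the minus strand, at chr3:26331860-26332159 for the first Nlgn1 start, chr11:69837735-69838034 for Nlgn2 and chr2:172043417-172043716 for Cbln4.
Nlgn1: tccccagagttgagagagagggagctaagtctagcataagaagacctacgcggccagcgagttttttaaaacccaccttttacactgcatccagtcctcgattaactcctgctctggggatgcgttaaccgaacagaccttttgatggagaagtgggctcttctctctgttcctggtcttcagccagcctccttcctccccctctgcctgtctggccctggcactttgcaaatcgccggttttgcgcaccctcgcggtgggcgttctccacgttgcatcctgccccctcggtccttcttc
Nlgn2: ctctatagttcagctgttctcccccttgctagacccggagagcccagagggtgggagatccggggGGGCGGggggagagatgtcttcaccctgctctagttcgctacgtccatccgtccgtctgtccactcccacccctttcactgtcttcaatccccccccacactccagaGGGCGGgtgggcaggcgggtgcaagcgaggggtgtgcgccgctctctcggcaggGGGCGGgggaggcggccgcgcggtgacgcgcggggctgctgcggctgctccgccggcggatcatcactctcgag
Cbln4: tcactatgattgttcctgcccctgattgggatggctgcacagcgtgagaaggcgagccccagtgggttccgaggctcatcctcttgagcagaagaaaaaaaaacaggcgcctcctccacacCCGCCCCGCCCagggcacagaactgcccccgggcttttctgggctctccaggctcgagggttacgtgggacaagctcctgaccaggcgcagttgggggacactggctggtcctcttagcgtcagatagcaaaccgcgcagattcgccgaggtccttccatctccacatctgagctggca
The Nlgn2 window was 68.7% G or C with 26 CpG, the Cbln4 window 60.3% with 15 CpG and the first Nlgn1 window 55.7% with 14 CpG. The medians of all windows were 52.7% and 7 CpG. A match, or none, describes only the letters in these windows.

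Levels of different genes can be compared only per length of transcript. With CPM divided by the kilobases of all annotated exons (GENCODE M21), Cbln2 stood highest in wild-type Input, at 59.9 ± 14.4 CPM per kilobase (SD, n = 5). Nlgn3 (13.2 ± 2.05), Nrxn3 (12.7 ± 1.63), Nlgn2 (10.2 ± 1.48) and Cbln4 (8.98 ± 1.97) followed, and each of these overlapped its neighbour in the order. Nrxn2 (5.06 ± 1.01) and Nlgn1 (4.27 ± 0.48) overlapped each other below them. Cbln1 was last at 0.706 ± 0.331 CPM per kilobase, under every value of Nlgn1. In wild-type IP, Cbln2 (31.6 ± 5.14 CPM per kilobase) and Cbln4 (28 ± 9.2) overlapped at the top. Nrxn3 (16.6 ± 1.77) overlapped with Cbln4 and with Nlgn3 (13.9 ± 2.96), and Nlgn3 with Nlgn2 (11.7 ± 0.417). Nlgn1 (7.12 ± 0.689) and Nrxn2 (7.01 ± 0.521) overlapped each other, and Cbln1 stayed last at 4.25 ± 1.41 CPM per kilobase. The order therefore differed between fractions mainly in the place of Cbln4.

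**Figure D1:**
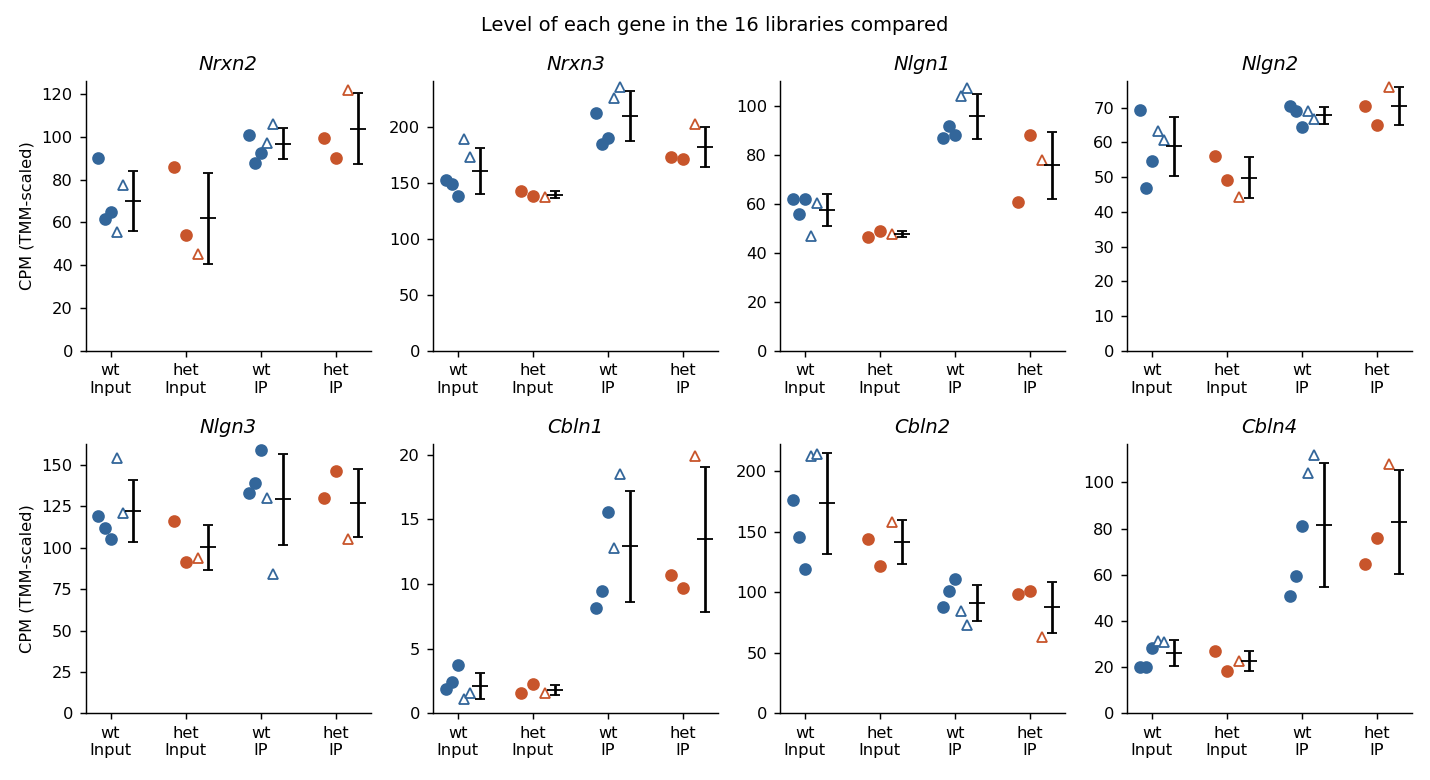
CPM of each gene in every compared library, 1 panel per gene, with wild types in blue and heterozygotes in orange. Filled circles are number-named animals, open triangles BT-named animals, and black bars the mean ± SD of a group. Cbln1 and Cbln4 lie higher in IP than in Input in both genotypes, and Cbln2 lies lower.

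The first comparison asks which of these genes' RNA was over- or under-represented on the tagged ribosomes relative to the whole lysate. Cbln1 and Cbln4 were several-fold higher in IP, Nlgn1, Nrxn2 and Nrxn3 were moderately higher, and Cbln2 was lower in wild types. In wild types 5 of the 8 genes were called higher and 1 lower in IP (edgeR quasi-likelihood test, Benjamini-Hochberg adjusted p below 0.05), where 28.5% of the 14797 tested genes were called higher, 25.6% lower and 54.1% in either direction. In heterozygotes 6 of 8 were called higher and 0 lower, against 22.6% higher, 22.1% lower and 44.8% in either direction. Both counts of genes called higher include Cbln1, which passed the count filter through its IP libraries and not in Input alone. The median log2 change of the 8 genes was 0.44 in wild types and 0.57 in heterozygotes, against 0.03 and 0.04 over all tested genes. Over single animals, 6 of the 8 genes were higher in IP in all 8 animals and 1 was lower in all 8, against 22.8% and 22.6% of tested genes.

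Among the cerebellins, Cbln1 (ENSMUSG00000031654, mm10 chromosome 8, 87468405 to 87472609, minus strand) had few reads in Input. Wild-type Input libraries held 1.89, 2.39, 3.74, 1.11 and 1.59 CPM in wt734, wt736, wt785, wtBT13 and wtBT14, and their IP libraries 8.16, 9.49, 15.6, 12.8 and 18.5 CPM. Heterozygous Input held 1.57, 2.27 and 1.61 CPM in het729, het786 and hetBT13, and IP 10.7, 9.72 and 19.9 CPM. Every IP library lay above every Input library. The difference was 2.55 on the log2 scale in wild types (SE 0.26, edgeR adjusted p = 5.34e-08), a fold of 5.87 with a 95% interval of 4.03 to 8.55. In heterozygotes it was 2.79 (SE 0.36, edgeR adjusted p = 2.66e-06). Cbln1 did not pass the count filter in Input alone and entered this fit through its IP libraries, where it is high. Its calls between fractions carry that limit. The Input values rest on 4 to 13 reads per library, and the exact Poisson interval of the 4 reads in wtBT13 Input runs from 0.304 to 2.85 CPM. That interval covers counting error only, since these libraries carry no molecular identifiers. Zic1 and Gabra6, markers of cerebellar granule cells, summed to 0 to 5.05 CPM in the compared libraries, with Gabra6 at 0 in every Input and heterozygous IP library.

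Cbln4 (ENSMUSG00000067578, chromosome 2, 172036233 to 172043466, minus strand), whose product binds neurexins and Dcc, has been described in somatostatin interneurons of mouse cortex. Wild-type Input held 19.9, 19.9, 28.2, 31.2 and 31.1 CPM and wild-type IP 50.8, 59.4, 81.1, 104 and 112 CPM, in the order of animals given for Cbln1. Heterozygous Input held 26.9, 18.5 and 22.5 CPM and heterozygous IP 64.7, 76.1 and 108 CPM. The fractions did not overlap, and within each fraction of the wild types the pair of BT-named animals was highest. The log2 difference was 1.62 in wild types (SE 0.12, edgeR adjusted p = 6.16e-10) and 1.83 in heterozygotes (SE 0.16, edgeR adjusted p = 2.26e-08). The interneuron marker Sst went the other way, from 265 ± 30.1 CPM in wild-type Input to 76.5 ± 18.4 CPM in IP (SD, n = 5).

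Cbln2 (ENSMUSG00000024647, chromosome 18, 86711110 to 86718283, plus strand), which encodes another neurexin-binding cerebellin, was lower in IP. Wild-type Input held 176, 146, 119, 213 and 214 CPM and wild-type IP 87.8, 101, 111, 84.3 and 73.2 CPM. Heterozygous Input held 144, 122 and 158 CPM and heterozygous IP 98.8, 101 and 63.5 CPM. Each animal's IP lay below its own Input, and the highest IP value lay below the lowest Input value. On the log2 scale IP minus Input was -0.89 in wild types (SE 0.24, edgeR adjusted p = 0.0176), and this call was lost without wt734 (adjusted p = 0.055) and without wtBT14 (adjusted p = 0.0506). In heterozygotes the difference was -0.70 (SE 0.32, edgeR adjusted p = 0.115), and it passed without the animal block (adjusted p = 0.0128), with no count filter (4.5e-07) or without wt785 (0.0252).

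The IP to Input ratios of Cbln1 and Cbln2 were apart between the 2 forms of the animals' names, and those of the other members were not. This pattern was seen after the values were known and is given without a test. The ratio of IP to Input CPM of Cbln1 was 11.5, 11.7 and 12.4 in the BT-named animals and 3.97 to 6.82 in the number-named animals. That of Cbln2 was 0.342, 0.396 and 0.401 against 0.498 to 0.935, also without overlap. For Cbln4 the ratios overlapped, at 3.32 to 4.81 against 2.4 to 4.12, although its IP level did not, at 104 to 112 CPM against 50.8 to 81.1 CPM. The share of all tested genes with IP levels apart in this way was not computed. Mean log2 ratios in BT-named and number-named animals were 1.95 and 1.55 for Cbln4, -0.20 and 0.38 for Nlgn3 and 0.89 and 0.43 for Nrxn2. For Nlgn1 they were 0.89 and 0.59, for Nrxn3 0.43 and 0.36 and for Nlgn2 0.35 and 0.31. Ratios of the BT-named and number-named animals were apart for 2 of the 8 genes, against 9.16% of tested genes. No source used here says what the form of the name stands for, and its part in these ratios was not tested.

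**Figure D2:**
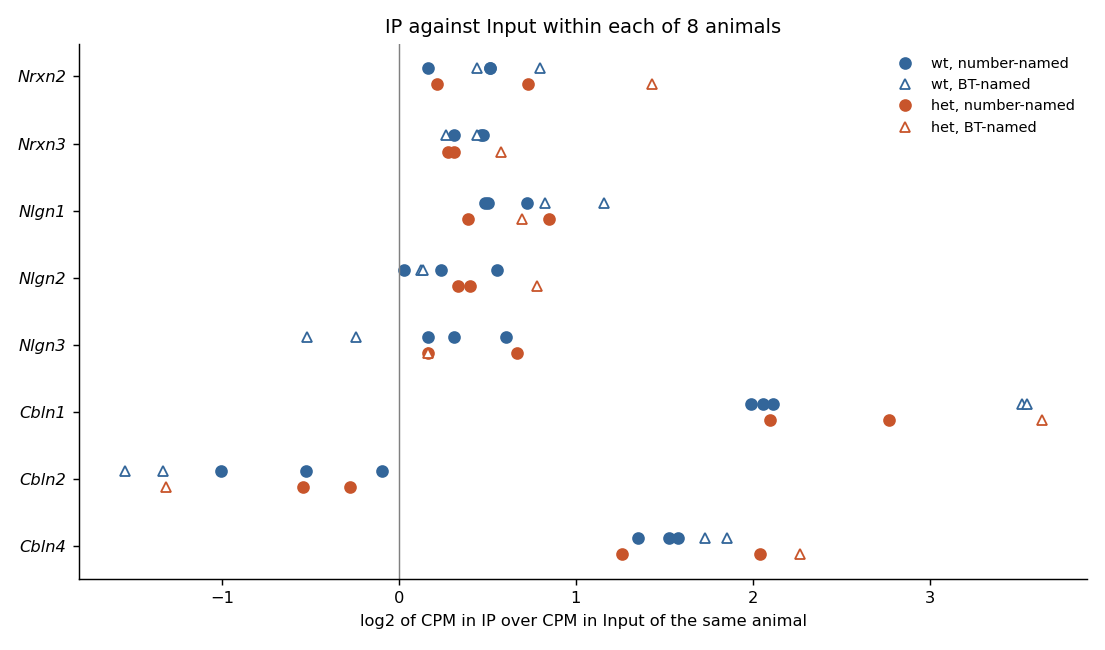
Ratio of IP to Input CPM in each of the 8 animals for the 8 genes, on a log2 scale, with wild types in blue, heterozygotes in orange, circles for number-named and open triangles for BT-named animals. Cbln1 lies farthest to the right (ratios of 3.97 to 12.4), Cbln2 lies below 0 in every animal, and Nlgn3 lies on both sides of 0.

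Among the neuroligins, Nlgn1 (ENSMUSG00000063887, chromosome 3, 25426215 to 26332460, minus strand), the excitatory synapse member, had the largest difference between fractions. Wild-type Input held 61.9, 55.8, 62.1, 46.8 and 60.2 CPM and wild-type IP 86.9, 91.8, 88.2, 104 and 107 CPM. Heterozygous Input held 46.5, 49 and 47.8 CPM and heterozygous IP 60.8, 88.2 and 77.7 CPM. IP and Input did not overlap within either genotype, though het729 IP lay below the highest wild-type Input values. The log2 difference was 0.74 in wild types (SE 0.10, edgeR adjusted p = 1.78e-06) and 0.64 in heterozygotes (SE 0.13, edgeR adjusted p = 0.00046). An antisense gene, A830092H15Rik, shares 1229 exon bases with Nlgn1. The libraries do not mark strand, and that gene had 327 reads over all 20 libraries against 6072 for Nlgn1.

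Nlgn2 (ENSMUSG00000051790, chromosome 11, 69823122 to 69837784, minus strand), the inhibitory synapse member, was higher in the IP of every animal, but by less. Wild-type Input held 69.2, 46.8, 54.6, 63.2 and 60.6 CPM and wild-type IP 70.4, 68.9, 64.3, 68.9 and 66.6 CPM. Heterozygous Input held 56.1, 49.3 and 44.2 CPM and heterozygous IP 70.6, 64.9 and 76 CPM. The fractions overlapped in wild types and did not in heterozygotes. On the log2 scale IP minus Input was 0.22 in wild types (SE 0.10, edgeR adjusted p = 0.0574) and 0.49 in heterozygotes (SE 0.13, edgeR adjusted p = 0.00358). Without hetBT13 the wild-type difference passed (adjusted p = 0.044) and that of the heterozygotes did not (0.36, adjusted p = 0.0627). The difference between the genotypes' IP to Input changes was itself 0.27 (95% interval -0.06 to 0.60, edgeR adjusted p = 1).

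Nlgn3 (ENSMUSG00000031302, chromosome X, 101299168 to 101325963, plus strand), the neuroligin of both synapse types, ranged from 91.4 to 154 CPM in Input and from 84.4 to 159 CPM in IP. It was higher in IP in 6 animals and lower in wtBT13 and wtBT14, whose IP to Input ratios were 0.845 and 0.698. The log2 difference was 0.08 in wild types (95% interval -0.21 to 0.37, edgeR adjusted p = 0.658) and 0.33 in heterozygotes (-0.05 to 0.71, adjusted p = 0.144). The latter passed only with no count filter (adjusted p = 0.0143).

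Both neurexins were higher in IP in all 8 animals. Nrxn3 (ENSMUSG00000066392, chromosome 12, 88722876 to 90334935, plus strand) held 153, 149, 138, 189 and 173 CPM in wild-type Input and 212, 185, 190, 226 and 236 CPM in wild-type IP. Heterozygotes held 143, 138 and 137 CPM in Input and 173, 171 and 203 CPM in IP. On the log2 scale IP minus Input was 0.40 in wild types (SE 0.07, edgeR adjusted p = 0.000105) and 0.38 in heterozygotes (SE 0.10, edgeR adjusted p = 0.00299), and the latter call was lost without hetBT13 (adjusted p = 0.0515). Wild-type fractions overlapped by 1 animal, wtBT13, whose Input exceeded the lowest IP value.

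Nrxn2 (ENSMUSG00000033768, chromosome 19, 6418731 to 6544169, plus strand) ranged from 45.4 to 90.2 CPM in Input and from 87.6 to 122 CPM in IP, and the fractions overlapped through wt734 Input. The log2 difference was 0.49 in wild types (SE 0.12, edgeR adjusted p = 0.00265) and 0.75 in heterozygotes (SE 0.16, edgeR adjusted p = 0.00119). In heterozygotes it was 0.45 without hetBT13, the animal with the highest ratio, 2.69. The counts are per gene, so the long and short neurexin forms, which start at different promoters, were not separated.

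Markers show what else differed between the fractions. In both genotypes the 3 glutamatergic markers (Slc17a7, Neurod6, Tbr1) were called higher in IP, and all 6 interneuron, 5 astrocyte, 4 oligodendrocyte and 4 striatal markers were called lower. Summed interneuron markers fell from 1043 to 1158 CPM in wild-type Input to 478 to 632 CPM in wild-type IP, and summed oligodendrocyte markers from 2477 to 3160 CPM to 550 to 748 CPM. Summed striatal markers fell from 907 to 1133 CPM in wild-type Input to 316 to 395 CPM in wild-type IP. They were thus present in Input, although basal ganglia were dissected away. Other lists were mixed. Of the thalamic markers, Lef1 was called higher in IP (log2 2.18 in wild types and 1.93 in heterozygotes), Tcf7l2 lower (-1.10 and -0.68) and Prkcd was not called. Of the hippocampal markers, Prox1 was called lower in both genotypes (-1.34 and -1.27). Fibcd1 was called higher in wild types (0.54) and was not called in heterozygotes (0.22). The difference between the genotypes for Fibcd1, -0.32, was not called. Of the microglial markers, P2ry12 was called lower in both genotypes, Cx3cr1 in heterozygotes and Csf1r in neither, and of the endothelial markers Cldn5 was called lower in both and Slc2a1 in neither. No marker of the first 5 lists was at 0 in all libraries of a group. In RNA of mixed tissue, more cells of a type and more RNA per cell cannot be told apart, and the part of cell makeup in the differences of the 8 genes was not tested.

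The relative use of the inhibitory and excitatory neuroligin genes was followed as Nlgn2 reads per Nlgn1 read, a ratio within a library that needs no scaling between libraries and carries the gene lengths with it. Wild-type Input libraries had ratios of 1.12, 0.839, 0.88, 1.35 and 1.01 and wild-type IP libraries 0.811, 0.751, 0.729, 0.66 and 0.625. Heterozygous Input libraries had 1.21, 1.01 and 0.925 and heterozygous IP libraries 1.16, 0.737 and 0.978. Every wild-type IP ratio lay below every wild-type Input ratio, and 7 of 8 animals were lower in IP. Over the 8 animals the log2 ratio in IP minus that in Input averaged -0.38 (two-sided exact permutation p = 0.0234, 0.0703 adjusted over 3 ratio tests, smallest possible p 0.00781). The difference was -0.54 in BT-named and -0.28 in number-named animals.

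Between genotypes the ratio in IP was higher in heterozygotes by 0.40 on the log2 scale (two-sided exact permutation p = 0.0536, adjusted 0.0804, smallest possible 0.0179), and het786 overlapped the wild types. The difference was 0.61 in BT-named animals, with 1 heterozygote, and 0.28 in number-named animals. Without het729 it was 0.25 and without het786 0.58. In Input the genotype difference of the ratio was 0.02 (exact permutation p = 0.929), with -0.33 in BT-named and 0.23 in number-named animals. None of the 3 ratio comparisons passed the adjusted threshold of 0.05.

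**Figure D3:**
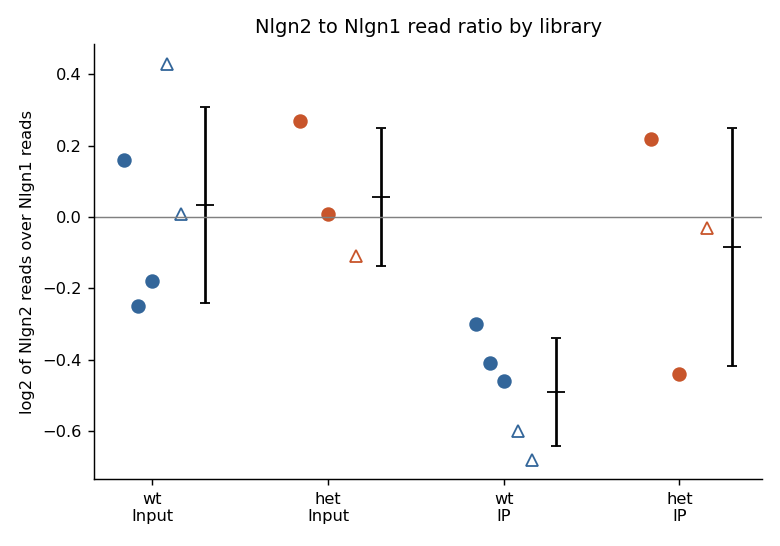
Log2 of Nlgn2 reads over Nlgn1 reads in each compared library, with wild types in blue, heterozygotes in orange, circles for number-named and open triangles for BT-named animals, and bars for the mean ± SD of a group. Wild-type IP libraries average -0.49 and lie below all wild-type Input libraries, while heterozygous IP libraries average -0.09 and spread over both.

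The second comparison asks whether the Foxp2 deletion changed the level of these genes in either fraction. None of the 8 was called in IP, where the edgeR test called 0 of 14755 genes (0%), with 4.09% at an unadjusted p below 0.05, and where DESeq2 called 3 and limma-voom 0. None of the 7 tested in Input was called, where edgeR called 0 of 13870 genes (0%), with 7.06% below an unadjusted p of 0.05, and where neither DESeq2 (0) nor limma-voom (0) called a gene. Cbln1 was too low in Input to pass the count filter, at 2.14 ± 1 CPM in wild types (SD, n = 5) and 1.81 ± 0.395 CPM in heterozygotes (n = 3). The genotype groups overlapped for all 8 genes in IP and for all 7 in Input, against 3.52% and 5.29% of tested genes without overlap. Foxp2 itself was not called, at log2 -0.76 in Input (edgeR adjusted p = 0.501) and -0.59 in IP (edgeR adjusted p = 0.981). It passed only in Input with no count filter (edgeR adjusted p = 0.000794). The absence of calls is therefore not a finding of no change.

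In IP, log2 changes of heterozygotes against wild types were negative for 4 of the 8 genes, with a median of 0.00, and negative for 49.3% of all tested genes. The largest was that of Nlgn1, -0.34 (SE 0.13, 95% interval -0.62 to -0.07, edgeR adjusted p = 0.981), and Nlgn1 was the 1 gene of the 8 below an unadjusted p of 0.05. Its mean was 75.6 ± 13.8 CPM in heterozygotes (SD, n = 3) and 95.6 ± 9.25 CPM in wild types (n = 5). Of the heterozygotes, het729 and hetBT13 lay below all wild types and het786, at 88.2 CPM, lay among them. Without het729, whose IP had the raised mitochondrial share, the change was -0.21. Within name forms the heterozygous level was 73.7% of wild type in BT-named and 83.7% in number-named animals.

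For Nrxn3 the change in IP was -0.21 (95% interval -0.44 to 0.02, edgeR adjusted p = 0.981), with levels of 87.9% and 87.8% of wild type in BT-named and number-named animals. The other 6 genes had changes between -0.07 and 0.09. The 95% interval for Nlgn2 was -0.16 to 0.26, for Nrxn2 -0.14 to 0.33 and for Cbln1 -0.57 to 0.70. Cbln4 and Nlgn3 lay between, at -0.53 to 0.58 and -0.39 to 0.32, and Cbln2 at -0.41 to 0.28.

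In Input the log2 changes were negative for 7 of 7 genes, with a median of -0.22, against a median of 0.01 and 48.7% negative over all tested genes. The changes were -0.15 for Nrxn2, -0.19 for Nrxn3, -0.26 for Nlgn1, -0.22 for Nlgn2, -0.27 for Nlgn3, -0.29 for Cbln2 and -0.18 for Cbln4. The edgeR adjusted p values ran from 0.695 to 0.895, and Nlgn1 and Nlgn3 had unadjusted p values of 0.0455 and 0.0437. These genes share their libraries, so 7 like signs are not 7 independent results. Of the partner genes described further on, 22 of 30 tested in Input were negative too, with a median of -0.09. By list, 11 of 12 neurexin ligands, 7 of 9 neurexin adaptors and splicing regulators and 2 of 7 neuroligin partners were negative. In BT-named animals, with 1 heterozygote, the heterozygous level of the 7 genes was 68.1% (Nrxn2 and Nlgn3) to 89.3% (Nlgn1) of wild type, and in number-named animals 79.6% (Nlgn1) to 100% (Cbln4). Nlgn1 was thus lower in number-named than in BT-named animals by this measure, and the other 6 genes the reverse. Astrocyte markers were mostly lower in heterozygotes in both fractions, with median log2 changes of -0.45 in Input (Aldoc at 0.00) and -0.51 in IP and none called. Median Input changes were 0.07 for glutamatergic, 0.11 for interneuron and 0.18 for striatal markers. They were -0.09 to -0.05 for oligodendrocyte, hippocampal, endothelial, microglial and thalamic markers. The part of cell makeup was not tested.

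The difference of genotype effects between the fractions was not called for any of the 8 genes, nor for any of 14797 tested (0%), with 3.07% at an unadjusted p below 0.05 and 0 calls by DESeq2 and by limma-voom. The values of the 8 genes ran from -0.10 for Nlgn1 to 0.27 for Nlgn2.

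**Figure D4:**
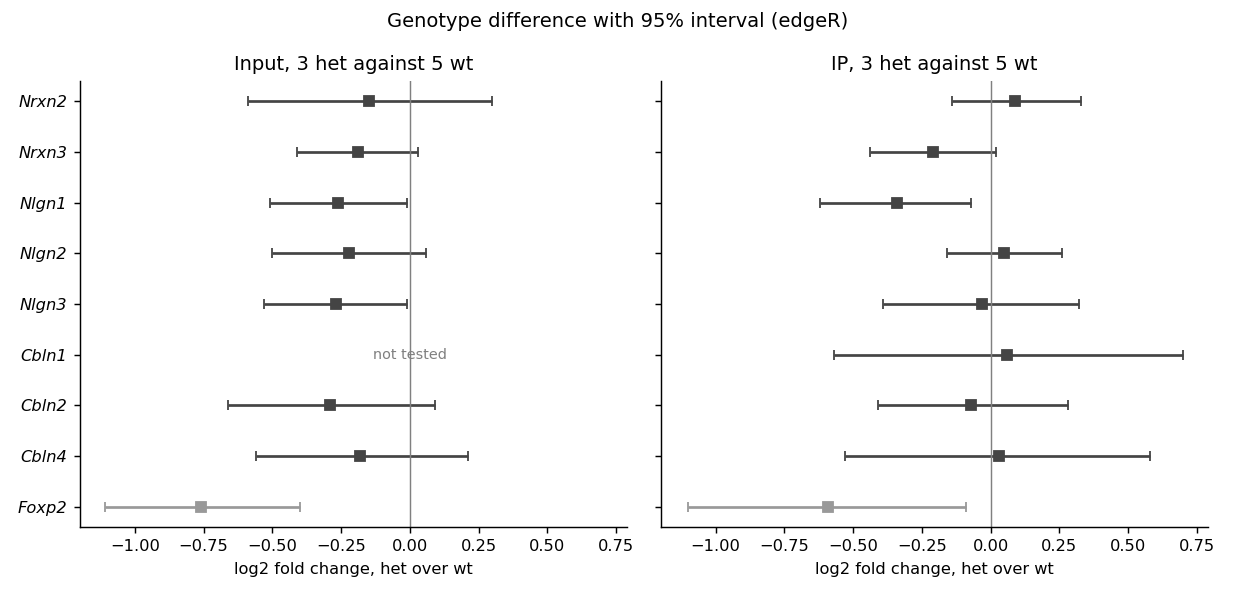
Log2 change of heterozygotes against wild types in IP and in Input for the 8 genes in dark grey and Foxp2 in light grey, with 95% intervals from edgeR, and no value for Cbln1 in Input. In Input the 7 points of the tested genes lie below 0, and in IP the 8 points lie from -0.34 to 0.09.

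Genes whose products bind or act on the 8 proteins were taken from 4 lists, with 33 genes reported here, of which 32 were tested between fractions and C1ql1 was too low. In wild types 16 were called higher in IP, 5 lower and 11 neither way, where 28.5% of all tested genes were called higher and 25.6% lower. In heterozygotes 15, 3 and 14 were, where 22.6% of all tested genes were called higher and 22.1% lower. Their median log2 change was 0.26 in wild types and 0.50 in heterozygotes, against 0.03 and 0.04 over all tested genes. Both counts of partners called higher include Dcc, and the count in wild types includes Nxph4. These genes passed the count filter through their IP libraries and not in Input alone. The count of 5 lower in wild types was 2 or 3 under DESeq2, with no count filter, without the animal block, and without wt734, wt736, wt785 or wtBT14.

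Of 13 tested neurexin ligands, 9 were called higher and 1 lower in wild types (28.5% and 25.6% of all tested genes), and 7 and 1 in heterozygotes (22.6% and 22.1%). The 9 include Nxph4, which passed the count filter through its IP libraries and not in Input alone. Nxph3, a neurexophilin that binds the long neurexins, rose from 3.54 ± 0.831 CPM in wild-type Input to 16.5 ± 5.45 CPM in IP (SD, n = 5), a log2 difference of 2.21 (edgeR adjusted p = 2.38e-08). Its relative Nxph1, known from cortical interneurons, fell from 63.8 ± 5.67 to 29.9 ± 6.97 CPM, a difference of -1.11 (edgeR adjusted p = 3.08e-07). Nxph3 and Nxph1 moved in opposite directions in heterozygotes too, by 1.93 and -1.34. The calsyntenins Clstn2 and Clstn3 are postsynaptic proteins described as neurexin partners. Their genes were called higher in both genotypes, by 0.79 and 0.71 in wild types and by 1.02 and 0.88 in heterozygotes. The leucine-rich repeat protein gene Lrrtm2 was also called higher in both, by 0.59 in wild types and 0.90 in heterozygotes.

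Of the cerebellin receptor genes, the 3 reported here (Grid1, Dcc and Neo1) were called higher in IP in each genotype. The list is not shown whole, so this count says nothing of the list. Grid1, which encodes the delta-type glutamate receptor of the forebrain, rose from 18.3 ± 0.902 to 33.5 ± 8.37 CPM in wild types (log2 0.87, edgeR adjusted p = 2.26e-05). Dcc was higher by 1.22 from a low level (1.82 ± 0.692 CPM in Input) and Neo1 by 0.44. Dcc, like Cbln1, did not pass the count filter in Input alone and entered this fit through its IP libraries, where it is high. Its calls between fractions carry that limit.

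Of 7 neuroligin partners, 2 were called higher and 1 lower in wild types, and 2 and 0 in heterozygotes. The counts called higher are near the shares of all tested genes, 28.5% and 22.6%, and are no result about the list. Gphn, the gene of the inhibitory synapse scaffold gephyrin, was higher by 0.78 (edgeR adjusted p = 1.06e-05). Magi2, a scaffold that binds neuroligins, was higher by 0.82 in wild types and by 1.48 in heterozygotes. Lhfpl4, which links neuroligin 2 to GABA-A receptors, was lower by a log2 change of -0.27 (edgeR adjusted p = 0.0429) in wild types and at 0.04 in heterozygotes (adjusted p = 0.845).

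Of 9 neurexin adaptors and splicing regulators, 2 were called higher and 3 lower in wild types, and 3 and 2 in heterozygotes. These too are near the shares of all tested genes, 28.5% higher and 25.6% lower in wild types and 22.6% and 22.1% in heterozygotes. Cask, a scaffold bound to the neurexin tail, rose by 0.53 and Khdrbs3, which encodes a regulator of neurexin splicing, by 0.53. Lin7c, of the same scaffold complex as Cask, fell from 185 ± 29.6 to 112 ± 8.6 CPM in wild types (log2 -0.70, edgeR adjusted p = 9.36e-07). Lin7a was at -0.20 in wild types (edgeR adjusted p = 0.0376) and -0.16 in heterozygotes (adjusted p = 0.209). Apba1 was at 0.29 in wild types (edgeR adjusted p = 0.0555) and 0.55 in heterozygotes (adjusted p = 0.00888). The differences between the genotypes, 0.04 for Lin7a and 0.26 for Apba1, were not called. Between genotypes edgeR called no reported gene of the 4 lists in either fraction (0 of 32 tested in IP and 0 of 30 in Input), with 2 and 6 at an unadjusted p below 0.05. Among them Apba2, which encodes a neurexin-binding adaptor, is named after its values were seen. In IP it was at 96.5 to 109 CPM in heterozygotes and 125 to 172 CPM in wild types, without overlap (log2 -0.56, edgeR adjusted p = 0.981). In Input its change was -0.24 (edgeR adjusted p = 0.695).

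**Figure D5:**
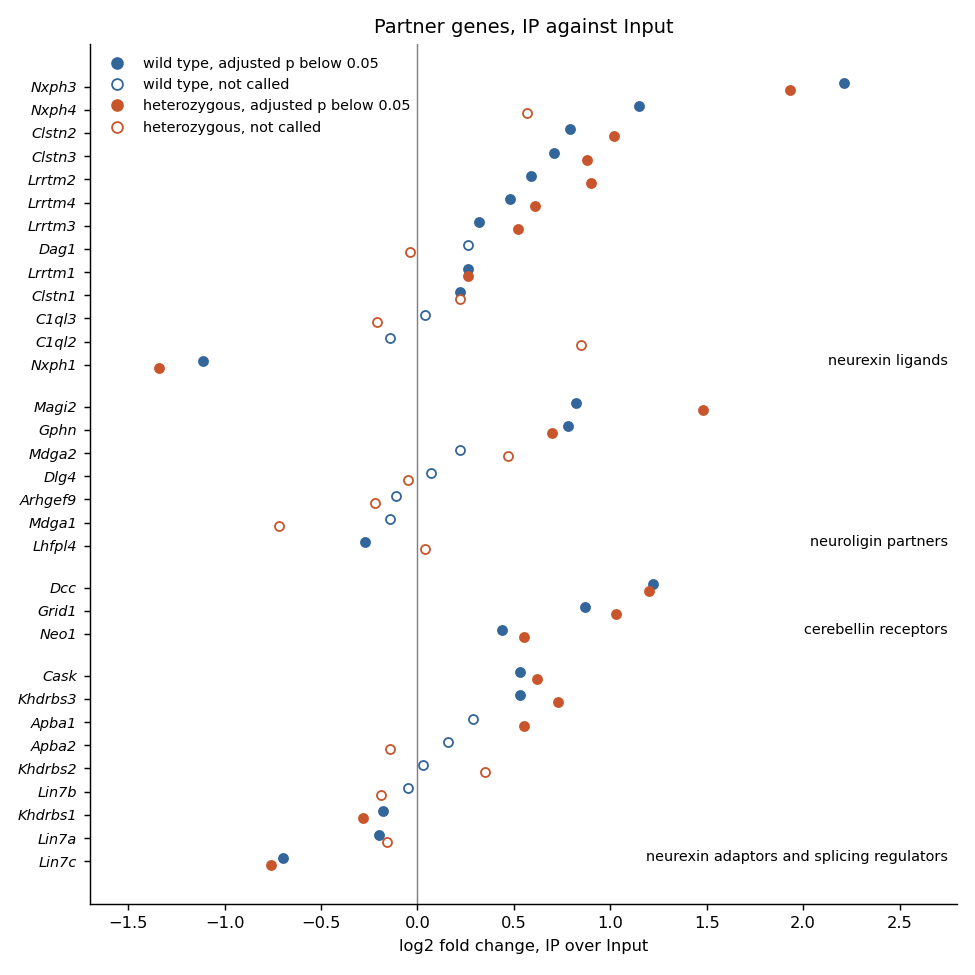
Log2 change of IP against Input for the 32 tested partner genes by list, with wild types in blue and heterozygotes in orange, filled where the adjusted p was below 0.05. Nxph3 stands highest in both genotypes and Nxph1 lowest.

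The genes most alike in pattern were found as the 2 with the smallest root mean square difference in centred log2 CPM over the 16 libraries, out of 12173 candidates. For Nlgn2 these were Agap1 (0.0998) and Tmed9 (0.107), and for Nrxn3 Rassf1 (0.102) and Thoc1 (0.103). For Nlgn3 they were Ssh1 (0.14) and Slc43a2 (0.151), for Nlgn1 Naa15 (0.148) and Hddc2 (0.149), and for Nrxn2 Tmem208 (0.149) and Borcs8 (0.17). Among the cerebellins, Cbln2 was nearest to Thrb (0.167) and Braf (0.171), Cbln4 to Pold1 (0.189) and Apaf1 (0.218), and Cbln1 to Hivep2 (0.305) and Shank2 (0.349). The values for Cbln1 are the largest, and its Input counts are the lowest.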

How the data were processed

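The authors deposited raw read counts by Ensembl identifier for 20 libraries from 10 animals. The submitters' processing notes name HTSeq and mm10, and no source used here gives the aligner, annotation, strand setting or HTSeq version. Libraries were made with Smart-seq2 per the labels' protocols, which marks neither strand nor molecules. Of 25317 identifiers, 24873 matched a gene name. No 2 libraries held identical values (0 pairs).

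Counts were tested in R 4.3.3 with edgeR 4.0.16 (filterByExpr with a minimum count of 10, TMM scaling, robust quasi-likelihood F tests, Benjamini-Hochberg adjustment over all tested genes, threshold 0.05). Genotype was tested in each fraction, 3 against 5 libraries. IP against Input, and the interaction, were tested jointly in 16 libraries with a block for animal, because both fractions come from 1 lysate. Deviations of the paired libraries from their group means correlated at 0.0592 to 0.24 over the 8 animals. CPM are TMM-scaled. Ratios were compared by exact permutation of samples. Each fit was tested on simulated data. Alternatives used DESeq2 1.42.0, limma 3.58.1 voom, RLE scaling, other count filters, the name form as a covariate, no block, and each animal left out.

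Another 4 heterozygous libraries, titled IX and IXX, of 2 animals without IP, entered only 1 alternative. Genes were named by a rule: the 8 genes and Foxp2, up to 4 genes of smallest p per partner list where members passed, and the 2 nearest in pattern. Partner and marker lists come from general knowledge. A gene of the partner lists is not reported here. The 8 genes and all lists were chosen with earlier results of these data known.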

Additional observations from a re-analysis of the deposited data

Results flagged for a closer look

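The 4 heterozygous libraries titled IX and IXX entered no comparison of the report, only an alternative for genotype in Input. In them Cbln4 averaged 32 CPM over the IX and IXX libraries of hetBT14 (41.5 and 22.5 CPM), which is above the highest wild-type Input library, 31.2 CPM. For het730 the mean was 27.4 CPM (30 and 24.9), within the wild-type range of 19.9 to 31.2 CPM. The gap between the IX and IXX libraries of hetBT14 is wider than the excess over wild type. No source used here says what these titles stand for. Among 18 groups of gene values tested for a sample far from the others, 0 were found, where chance gives about 1 in 20. The critical value of that test was set for groups of 5, so it does not speak for the heterozygous groups of 3.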

How the results depend on the processing

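For the 8 genes, 283 of 312 values with 1 animal left out and 237 of 241 values under the other settings kept their direction and their side of the threshold. These counts include genotype and interaction results, where edgeR called 0 genes, so keeping their side of the threshold says little there. The calls of Cbln1, Cbln4, Nlgn1 and Nrxn2 between fractions held in every alternative run, and the calls that changed stand beside their results. For Cbln1 this carries the limit given above, that it passed the count filter through its IP libraries and not in Input alone. Over all genes, edgeR calls of 0 became 3 for genotype in IP under DESeq2, and 28 for genotype in Input and 11 for the interaction with no count filter. Counts between fractions stayed within 1.5 times, at 7014 to 8145 in wild types and 4732 (without het786) to 6886 in heterozygotes. Without the animal block, the counts were 7552 in wild types (8010 with it) and 6130 in heterozygotes (6622 with it). That fit changed the call of Cbln2 in heterozygotes and of no other member. No paired analysis was possible between genotypes because the groups share only 1 name within a fraction. With 1 animal left out, genotype changes in IP ran from -0.04 to 0.19 for Nrxn2, -0.01 to 0.10 for Nlgn2, -0.16 to 0.09 for Nlgn3, -0.34 to 0.25 for Cbln1, -0.18 to 0.12 for Cbln2 and -0.21 to 0.18 for Cbln4, and in Input from -0.48 to 0.02 for Nrxn2. Cbln4 in Input was at 0.04 with the IX and IXX libraries added. Nlgn3 between fractions in wild types ran from -0.06 to 0.22. The interaction ran from -0.04 to 0.57 for Nrxn2, -0.11 to 0.04 for Nrxn3, -0.20 to 0.03 for Nlgn1, -0.14 to 0.61 for Cbln1, -0.02 to 0.48 for Cbln2, -0.01 to 0.53 for Cbln4 and -0.08 to 0.48 for Foxp2. The genotype difference of the Nlgn2 to Nlgn1 ratio in IP ran from 0.25 to 0.58 (exact permutation p = 0.0476 without het786) and was 0.61 in BT-named animals, and in Input it ran from -0.08 to 0.12 and was -0.33 in BT-named animals. The cause of these shifts was not tested. Genotype intervals are limited by 3 heterozygotes, 1 of them BT-named, and Cbln1 by 4 to 13 reads per Input library.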
